A study of Mus musculus with 64 samples.

Results

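The genes described here are 40 chaperone and stress genes read by symbol from both expression tables of a mouse colon study. They comprise 19 cytosolic and mitochondrial heat shock genes, the cold-inducible genes Cirbp and Rbm3, and 19 genes of protein folding and stress signalling in the endoplasmic reticulum (ER). Ddit3 is held by 2 gene identifiers, so the 40 symbols gave 41 of the 35534 genes in each table. All 41 passed the filter on low counts in both tables, so no member was lost to it. The study sequenced whole colon of wild-type Swiss Webster mice aged 8 to 12 weeks, kept on standard chow and 12 h of light a day either free of specific pathogens (SPF) or germ-free (GF). Each mouse received intraperitoneal injections of 100 µl, either PBS alone or PBS with 2.5 mg of vancomycin, 2 times a day over 3 days and a last time on day 4. GF mice left their isolators for ISOcages while they were treated, so both GF groups share that move, and every group shares the injections. Colon was taken at zeitgeber time (ZT) 5, 11, 17 or 23, in hours after lights on, so that ZT5 and ZT11 fell in the light and ZT17 and ZT23 in the dark. The 2 kinds of mice, 2 treatments and 4 times gave 16 groups of 4 libraries. The labels number these libraries as replicates and do not say that each came from a separate mouse, so p-values rest on the spread from library to library.

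Chaperones bind unfolded proteins and help them to fold. In the cytosol, the Hsp70 and Hsp90 families do this together with co-chaperones such as Dnaja1, Dnajb1, Bag3, Stip1, Fkbp4, Ahsa1 and Chordc1, and the transcription factor Hsf1 raises many of their genes when proteins unfold. In the ER, Hspa5 (BiP), Hsp90b1, the calnexin and calreticulin pair and the disulphide isomerases fold secreted proteins, which goblet cells and plasma cells of the colon make in large amounts. Misfolding there activates the unfolded protein response, in which Xbp1 and Atf6 raise chaperone genes, while Atf4, Ddit3 (CHOP) and Trib3 belong to the branch driven by the kinase Perk. Cirbp and Rbm3 are RNA-binding proteins whose transcripts rise with mild cooling, and in several tissues they follow the daily rhythm of body temperature.

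Of the 40 symbols, 33 had a promoter window in the RefSeq table, and the 250 bases before the start site were searched on both strands. The ER stress response element, a motif of 19 bases searched with its CCAAT and CCACG ends fixed and the bases between them free, is the one through which Atf6 and Xbp1 are known to act. It was found in 7 of the 33 members (21.2%), all of them ER genes, and in 0.13% of the 27025 symbols in the table. The related ER stress response element II, shown in capitals in the Herpud1 stretch, was found in Herpud1 and in 0.037% of all symbols. These stretches are shown because most of these genes changed together over the day. They are written 5′ to 3′ along the gene's own strand, with the motif in capitals, and their coordinates are of build GRCm38.p6.
Hspa5, chr2:34772005-34772063, plus strand: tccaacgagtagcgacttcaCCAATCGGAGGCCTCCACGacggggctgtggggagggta
Calr, chr8:84847055-84847113, minus strand: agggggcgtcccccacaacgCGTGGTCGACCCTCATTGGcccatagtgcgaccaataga
Canx, chr11:50325780-50325838, minus strand: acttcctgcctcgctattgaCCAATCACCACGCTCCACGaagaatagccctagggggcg
Pdia6, chr12:17266471-17266529, plus strand: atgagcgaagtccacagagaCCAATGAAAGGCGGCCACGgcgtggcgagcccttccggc
Dnajc3, chr14:118937807-118937865, plus strand: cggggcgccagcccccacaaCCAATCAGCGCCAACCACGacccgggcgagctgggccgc
Creld2, chr15:88819500-88819558, plus strand: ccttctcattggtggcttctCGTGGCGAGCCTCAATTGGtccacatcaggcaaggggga
Hsp90b1, chr10:86705513-86705571, minus strand: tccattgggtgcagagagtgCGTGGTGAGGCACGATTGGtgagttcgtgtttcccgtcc
Herpud1, chr8:94386357-94386407, plus strand: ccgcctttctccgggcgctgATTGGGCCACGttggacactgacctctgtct
In Calr, Creld2 and the Hsp90b1 stretch shown, the motif lies on the opposite strand and so reads as its reverse complement. A second copy in Hsp90b1 lies farther from its start, at chr10:86705618-86705676.

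The heat shock element, built from repeated GAA units in alternating direction, is the motif bound by Hsf1. With 3 units, as shown in capitals for Hspe1, it was found in 2 of the 33 members (6.06%), Hspd1 and Hspe1, and in 0.514% of all symbols. These 2 mitochondrial chaperonin genes share 1 promoter, and their element is shown along the Hspe1 strand. A second match on the opposite strand overlaps it. With 2 units, spelled GAANNTTC and contained in the longer form, it was found in 7 of 33 members (21.2%) and in 7.73% of all symbols. Hspa1a and Hspa1b carried the same letters around it, as near-identical copies of each other do, and the Hspb1 stretch is shown because that gene moved against the rest. A second match in Hspb1 lies farther from its start, at chr5:135887782-135887829. Its letters open the Hspb1 stretch in lower case.
Hspe1, chr1:55088044-55088096, plus strand: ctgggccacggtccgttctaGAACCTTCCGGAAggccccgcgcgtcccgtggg
Hspa1a, chr17:34972233-34972280, minus strand: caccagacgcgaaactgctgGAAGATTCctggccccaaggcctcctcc
Hspa1b, chr17:34959315-34959362, minus strand: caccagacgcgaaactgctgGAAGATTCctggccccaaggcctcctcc
Hspb1, chr5:135887802-135887849, plus strand: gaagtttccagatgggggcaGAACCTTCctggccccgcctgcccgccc
A match describes letters only, and binding was not measured in these samples.

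Levels are given as CPM, a gene's share of the estimated counts of its library on the counts-per-million scale. Totals ran from 10044032 to 13615804 estimated counts in the 32 SPF libraries and from 10513966 to 15736087 in the 32 GF libraries. The summed share of the members was 0.712% to 1.17% in SPF and 0.597% to 0.969% in GF libraries. Of 12 clock genes tested, 12 in SPF and 11 in GF mice passed the test for time of day, and the summed markers of goblet cells and of smooth muscle were at 4290 CPM or more in every library. A gene was called when its adjusted p was under 0.05 in edgeR's quasi-likelihood test, with Benjamini-Hochberg adjustment over all genes tested in the table.

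In SPF mice the chaperone genes followed the time of day, and most were highest at ZT23, near the end of the dark phase. The test over the 4 times called 26 of 41 members, against 21.1% of all genes tested. By class these were 11 of 19 heat shock genes, 1 of 2 cold-inducible genes and 14 of 20 ER genes. The members were chosen with earlier results of these data known, so their excess over all genes was not an independent test. Outside the members, 11 of 54 other ER folding and unfolded protein response genes (20.4%) and 17 of 48 other heat shock genes (35.4%) were called. Of the 26, 23 had their highest mean at ZT23, where 25.9% of all called genes had theirs, and 15 had their lowest at ZT11 and 9 at ZT17, where 30.3% and 15.3% of all called genes had theirs. Between ZT11 and ZT23, 23 members were called against 20.7% of all genes, 22 of them higher at ZT23 against 8.67% of all genes and 1, Hspb1, lower against 12.1%. The median log2 difference was 0.41 over the ER genes, 0.19 over the heat shock genes and 0.01 over all genes tested. For 10 members the 8 libraries at ZT23 did not overlap the 8 at ZT11, against 2.47% of all genes.

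Within that pair of times the makeup of the tissue also moved. All 8 smooth muscle markers fell at ZT23, with a median log2 difference of -1.42, and their summed level was 4290 to 9120 CPM at ZT23 and 10500 to 26000 CPM at ZT11, with no overlap. In whole tissue, fewer cells of a type and less RNA per cell cannot be told apart. With the smooth muscle level as a covariate, 0 of 41 members and 46 of all genes were called for ZT23 minus ZT11 (14 members at an unadjusted p under 0.05). Under that covariate the median log2 difference of the members was 0.29, against 0.31 without it, all 23 kept their sign and the median standard error (SE) went from 0.11 to 0.21. With a covariate for position along the colon, 12 members were called. The calls of Canx, Pdia3, Pdia4, Pdia6, Herpud1, Stip1, Hsp90ab1, Ahsa1, Hspa4, Hspd1 and Hspe1 were lost there. Some members moved more than the median over the 9 alternatives to the main fit. Estimates ran from -1.49 to -0.21 for Hspb1, 0.09 to 0.25 for Hsp90ab1, 0.12 to 0.32 for Hspa4 and 0.15 to 0.45 for Pdia3. For Pdia4 the estimates ran from 0.19 to 0.58 and for Hspa5 from 0.37 to 0.65. They ran from 0.53 to 0.66 for Sdf2l1 and 0.58 to 0.69 for Hyou1. Log2 differences given below are from the fit without covariates. Of 8 goblet cell markers 1 was called, the mucin Muc2, which fell by 0.79 on the log2 scale, and of 7 plasma cell markers 0 were called. Beyond these covariates, the part of tissue makeup in the time differences was not tested.

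**Figure D1:**
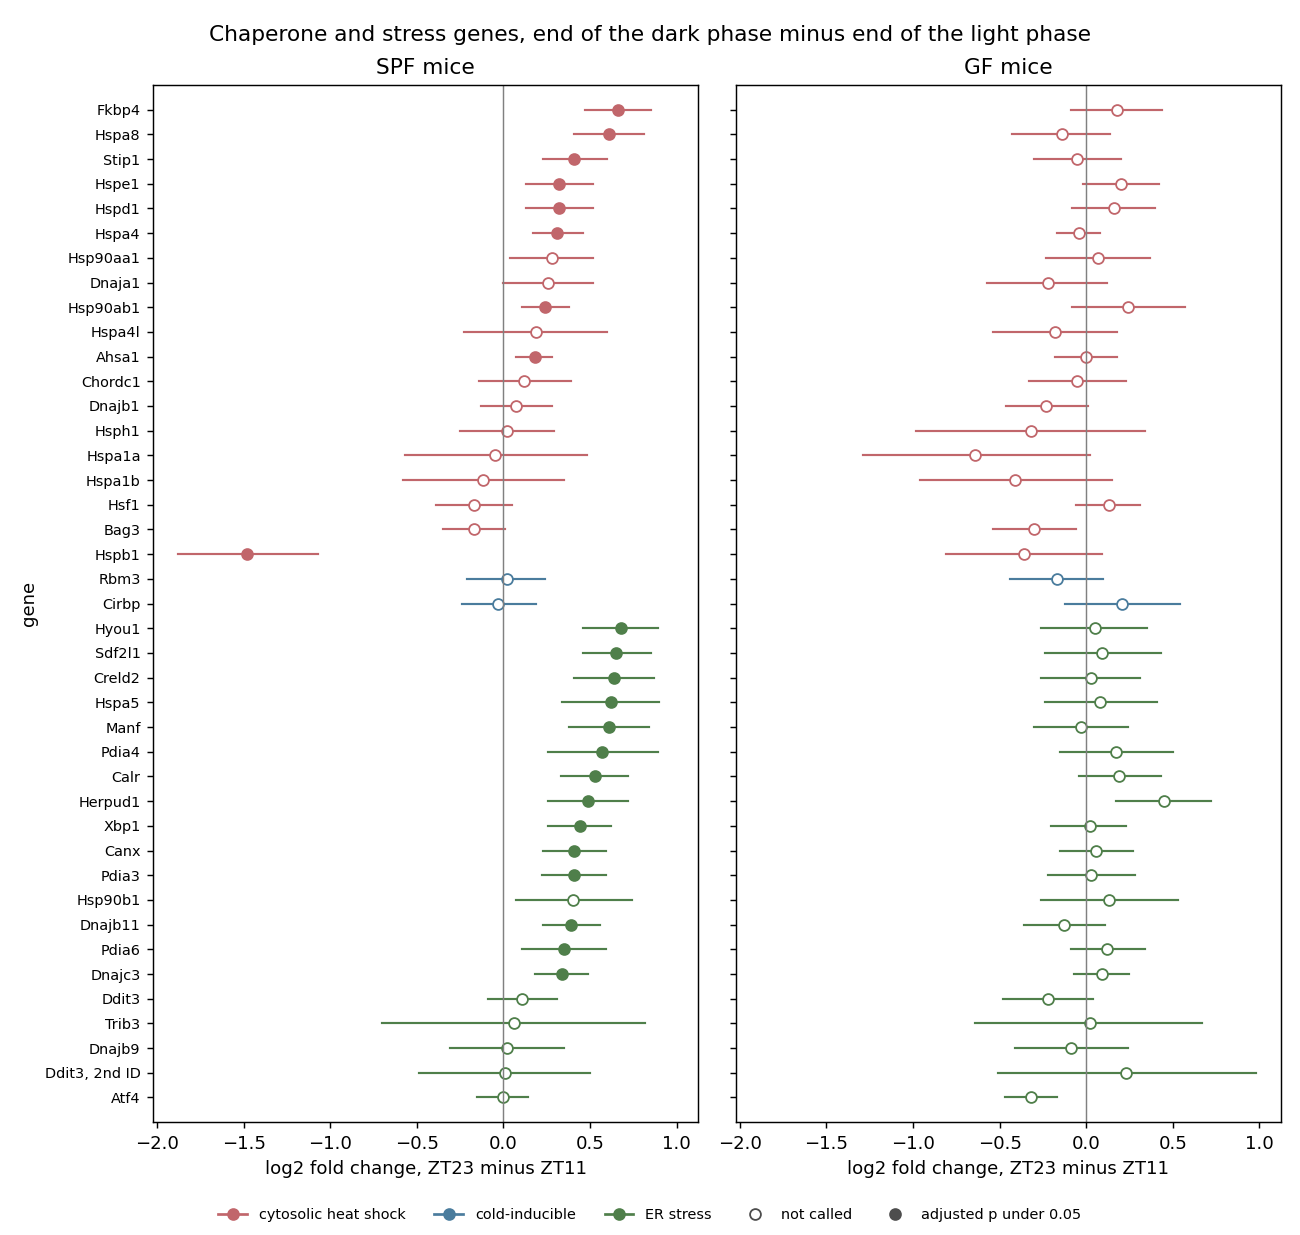
Log2 fold change between ZT23 and ZT11 (x axis) for each of the 41 genes (y axis), in SPF mice at left and GF mice at right; points are edgeR estimates over both treatments, bars are 95% intervals and filled points have an adjusted p under 0.05. In SPF mice 22 genes lie filled to the right of 0 and Hspb1 lies at -1.48, while in GF mice no point is filled.

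Among the ER chaperones, Hspa5, the Hsp70 of the ER, was at 315, 374 and 424 CPM (lowest, median and highest of 8 SPF libraries) at ZT11. At ZT23 it was at 472, 590 and 646 CPM. The 2 times did not overlap, and the log2 difference was 0.62 ± 0.14 (SE; edgeR, adjusted p = 0.00244). At ZT5 the 8 libraries spread from 319 to 686 CPM, and the highest values there came from the vancomycin libraries of replicates 3 and 4, at 603 and 686 CPM. Hyou1, an ER relative of Hsp110 that exchanges the nucleotide of Hspa5, was at 71.7, 96.8 and 119 CPM at ZT11 and at 138, 159 and 177 CPM at ZT23, without overlap. Its log2 difference of 0.68 ± 0.11 (SE; edgeR, adjusted p = 7.12e-05) was the highest of the members for this pair of times.

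Sdf2l1, a partner of the ER co-chaperone Dnajb11, had the lowest p of the members for time of day in SPF mice (edgeR, adjusted p = 1.28e-05). It was at 35.7, 47.3 and 60.7 CPM at ZT5 and at 27.9, 33.1 and 39.9 CPM at ZT11. At ZT17 it was at 27.4, 30.7 and 41.3 CPM, and at ZT23 at 45.2, 52.9 and 61.8 CPM. ZT23 lay clear of ZT11 and ZT17. ZT5 overlapped each of the other times, with its median between those of ZT11 and ZT23. It rose by 0.65 ± 0.10 from ZT11 to ZT23 and was lower at ZT17 than at ZT5 by -0.58 ± 0.10 (log2, SE; edgeR, adjusted p = 4.91e-05 and 0.00114).

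The secreted ER stress proteins Manf and Creld2 took the same form. Manf was at 86.1, 118 and 145 CPM at ZT11 and at 158, 184 and 201 CPM at ZT23. Creld2 was at 25.5, 46.3 and 53.6 CPM at ZT11 and at 59.7, 69 and 76.8 CPM at ZT23. Neither gene's ZT11 and ZT23 libraries overlapped, and the log2 differences were 0.61 ± 0.12 and 0.64 ± 0.12 (SE; edgeR, adjusted p = 0.00045 and 0.000299). Calr, the soluble lectin chaperone calreticulin, was at 532, 602 and 806 CPM at ZT11 and at 771, 883 and 1020 CPM at ZT23, which overlapped by 1 ZT11 library. Its log2 difference was 0.53 ± 0.10 (SE; edgeR, adjusted p = 0.000355).

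The other ER folding genes that rose from ZT11 to ZT23 were the membrane lectin chaperone Canx, the isomerases Pdia3, Pdia4 and Pdia6, and the co-chaperones Dnajb11 and Dnajc3. Their log2 differences ran from 0.34 for Dnajc3 to 0.57 for Pdia4. Leaving out 1 library at a time, the call of Pdia6 for this pair of times was lost for 11 of 32 libraries. The calls of the others were lost for 0. Over the 4 times, the call of Pdia4 was lost for 11 of 32. Hsp90b1, the Hsp90 of the ER, had a log2 difference of 0.40 ± 0.17 and was not called (edgeR, adjusted p = 0.0977). Dnajb9, a Dnaj co-chaperone that restrains the stress sensor Ire1, stood at 0.02 ± 0.17. Of the 8 ER genes whose ER stress response element is printed above, 7 were called higher at ZT23, as were 7 of the 12 ER gene identifiers for which none was found or no window was given, against 8.67% of all genes.

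**Figure D2:**
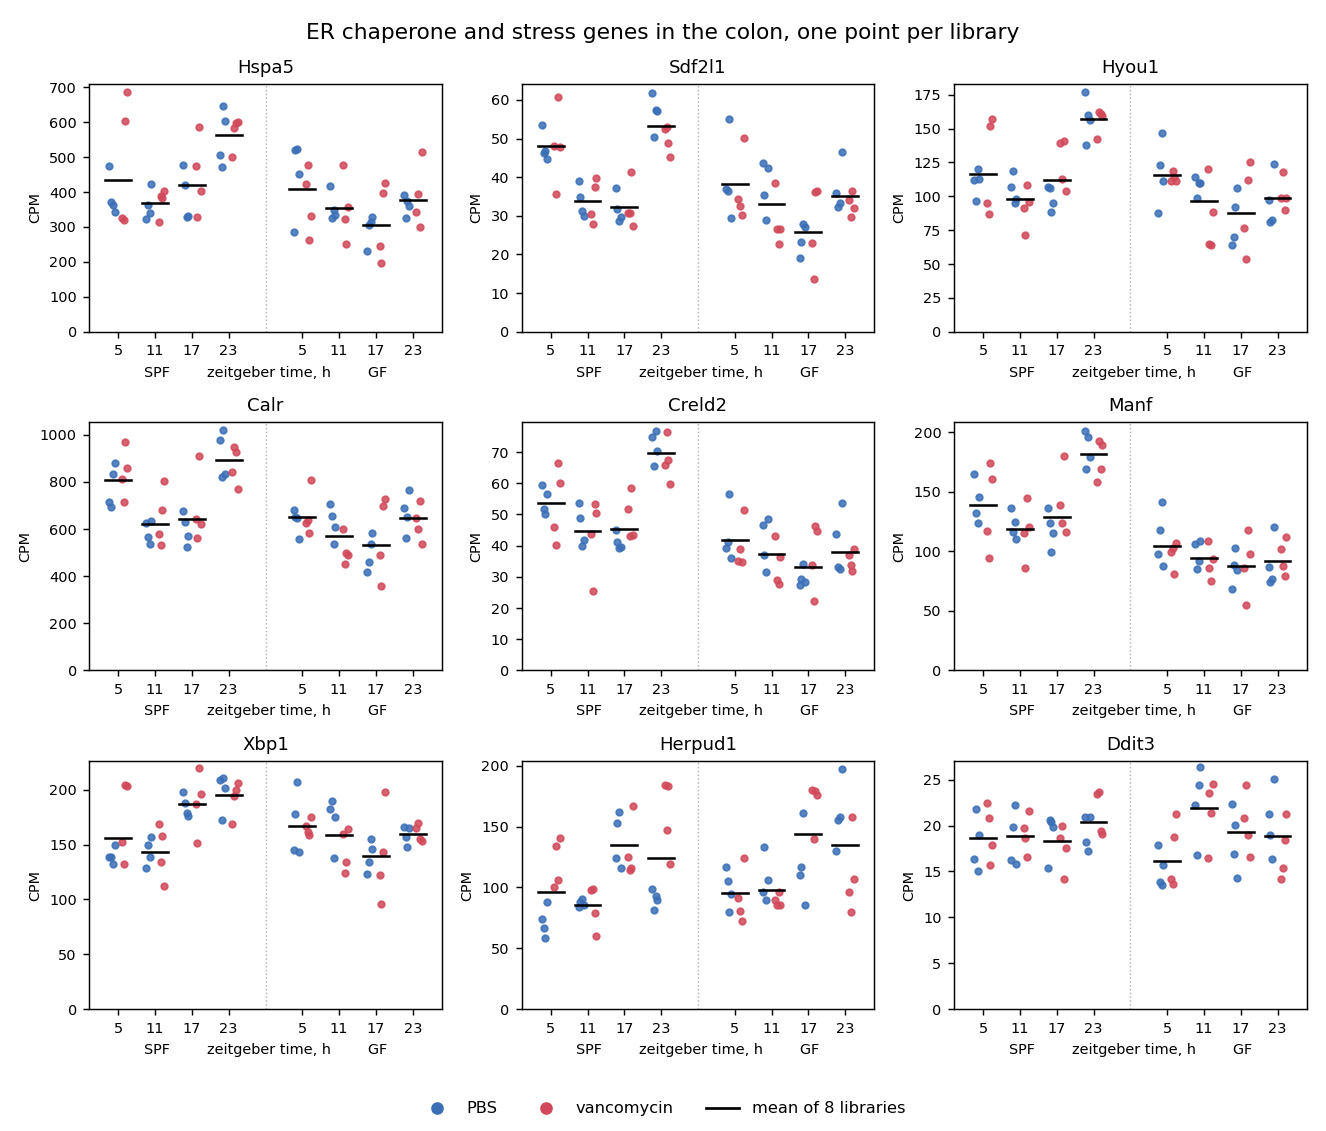
CPM (y axes, from 0) of 9 ER genes in each library by zeitgeber time in hours (x axes), SPF mice left and GF mice right of the dotted line; points are libraries, blue for PBS and red for vancomycin, and black lines are means of 8 libraries. The SPF libraries at ZT23 stand above those at ZT11 for Hspa5, Sdf2l1, Hyou1, Creld2 and Manf, and the GF libraries of these genes overlap between all times.

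The signalling genes of the unfolded protein response divided. Xbp1, whose spliced form is a transcription factor for ER chaperones, was at 112, 145 and 169 CPM at ZT11 and at 169, 201 and 211 CPM at ZT23 in SPF mice. At ZT17 it was at 151, 188 and 220 CPM and at ZT5 at 132, 145 and 204 CPM, so both dark times had the higher medians. The rise from ZT11 to ZT23 was 0.44 ± 0.09 (log2, SE; edgeR, adjusted p = 0.00105). Gene counts do not separate the spliced from the unspliced form. Herpud1, a membrane protein of ER-associated degradation, was at 58.4, 94 and 141 CPM at ZT5 and at 60.3, 86.8 and 98.6 CPM at ZT11. At ZT17 it was at 114, 124 and 167 CPM and at ZT23 at 81.3, 109 and 184 CPM. It rose at ZT17 against ZT5 by 0.54 ± 0.12 and at ZT23 against ZT11 by 0.49 ± 0.12 (log2, SE; edgeR, adjusted p = 0.00916 and 0.00327).

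Atf4, Ddit3 and Trib3 were not called for time of day in SPF mice. Of 29 other genes of the integrated stress response, 6 were called over the 4 times (20.7%, against 21.1% of all genes), namely Nupr1, Atf5, Eif4ebp1, Slc6a9, Cebpg and Cebpb. Ddit3, the pro-apoptotic transcription factor CHOP, was at medians of 18.5, 19.2, 19.2 and 20.1 CPM at ZT5, 11, 17 and 23, and its 32 libraries lay between 14.2 and 23.7 CPM. Its log2 difference between ZT23 and ZT11 was 0.11 with a 95% interval from -0.09 to 0.31. The second gene identifier of Ddit3, ENSMUSG00000116429, overlaps the first in the GENCODE vM21 annotation, so counts may be split between them, and it was not called either. For Atf4, the transcription factor above Ddit3, the difference was 0.00 with an interval from -0.15 to 0.14. Trib3, a pseudokinase target of Ddit3, had an interval from -0.70 to 0.82, too wide to place it.

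Among the cytosolic and mitochondrial heat shock genes, 8 rose from ZT11 to ZT23 in SPF mice, Hspb1 fell and the other 10 were not called. Hspa8, the constitutive Hsp70, was at 650, 786 and 939 CPM at ZT11 and at 932, 1300 and 1480 CPM at ZT23. The times overlapped by 1 library of each, and the log2 difference was 0.61 ± 0.10 (SE; edgeR, adjusted p = 9.71e-05). Fkbp4, an immunophilin that joins Hsp90 to steroid receptors, was at 188, 234 and 274 CPM at ZT11 and at 323, 369 and 401 CPM at ZT23. These did not overlap, with a log2 difference of 0.66 ± 0.10 (SE; edgeR, adjusted p = 3.34e-05). Stip1, the Hop protein that bridges Hsp70 and Hsp90, was at 77.1, 98.8 and 112 CPM at ZT11 and at 111, 130 and 140 CPM at ZT23, for a rise of 0.41 ± 0.09 (log2, SE; edgeR, adjusted p = 0.0024). The Hsp90 isoform Hsp90ab1, its activator Ahsa1, the Hsp110 relative Hspa4 and the mitochondrial chaperonins Hspd1 and Hspe1 rose by 0.18 to 0.32.

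Hsph1, the cytosolic Hsp110, followed another course. It was at 67.1, 95.5 and 132 CPM at ZT5, at 61.9, 88.3 and 136 CPM at ZT11, at 33.2, 51.1 and 74.6 CPM at ZT17, and at 84.8, 89.6 and 104 CPM at ZT23. It was thus low at ZT17 alone, with a difference from ZT5 of -0.90 ± 0.14 (log2, SE; edgeR, adjusted p = 0.000254), and ZT17 overlapped ZT5 between 67.1 and 74.6 CPM. Between ZT5 and ZT17, 4 members were called in SPF mice, against 3.28% of all genes. Rbm3 and Herpud1 rose, against 1.84% of all genes higher, and Hsph1 and Sdf2l1 fell, against 1.44% lower.

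Hspb1, the small heat shock protein Hsp27, moved against the rest. It was at 72.1, 128 and 226 CPM at ZT11 and at 33.2, 48.8 and 56 CPM at ZT23, without overlap, and fell by 1.48 ± 0.21 (log2, SE; edgeR, adjusted p = 1.93e-05). Its level went with the smooth muscle markers, which fell at the same time. After each library's value was taken relative to its group mean on the log2 scale, Hspb1 and the markers were correlated over the 32 SPF libraries (Pearson r = 0.68, rho = 0.68, permutation p adjusted over 30 relations 0.00018 and 0.00036). Without the 2 libraries farthest from the median of the marker level, r was 0.56. Over the 32 GF libraries r was 0.78 and rho 0.79 (permutation, adjusted p = 0.00018 and 0.0002), and r was 0.75 without 2 libraries. The same relation in SPF mice was r = -0.16 for Hspa5, -0.10 for Sdf2l1, -0.07 for Hyou1, -0.03 for Xbp1 and -0.30 for Hspa8, with rho from -0.32 to -0.08 and adjusted permutation p from 0.252 to 0.929. These 5 genes had r from -0.41 to 0.22 and rho from -0.37 to 0.25 in GF mice, with adjusted permutation p from 0.11 to 0.96. Without 2 libraries, chosen as for Hspb1, their r ran from -0.25 to -0.05 in SPF mice and from -0.32 to 0.46 in GF mice. The 0.46 was that of Hspa5, and these r were not tested.

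**Figure D3:**
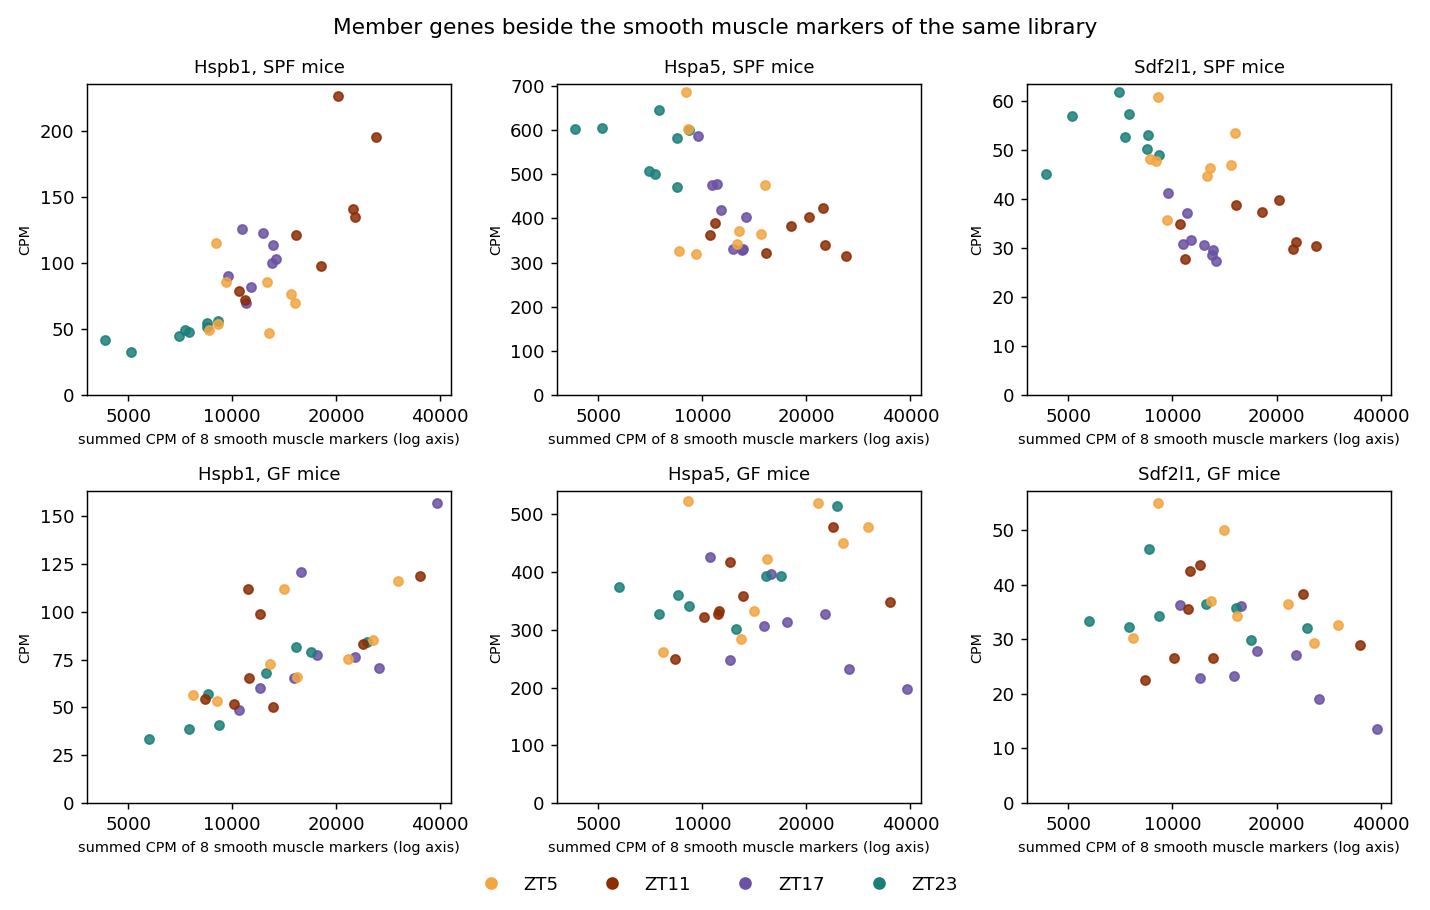
CPM of Hspb1, Hspa5 and Sdf2l1 (y axes, from 0) against the summed CPM of 8 smooth muscle markers in the same library (x axes, log scale), SPF mice above and GF mice below; points are libraries, coloured by zeitgeber time. Hspb1 rises with the markers in both kinds of mice, and in SPF mice the ZT23 libraries lie at 4290 to 9120 CPM of markers, left of the ZT11 libraries.

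The inducible Hsp70 genes Hspa1a and Hspa1b, which Hsf1 raises most strongly on heat, had medians without a called difference. Hspa1a was at 22.8, 49.9 and 100 CPM at ZT5, at 22.4, 34.7 and 57.2 CPM at ZT11, at 23.7, 40.7 and 70.4 CPM at ZT17 and at 27, 39.9 and 43.8 CPM at ZT23 in SPF mice. Its spread was narrowest at ZT23, where the SD was 6.73 CPM against 12.6 to 25.3 CPM at the other times. The log2 difference between ZT23 and ZT11 was -0.05 with a 95% interval from -0.57 to 0.48, and that of Hspa1b was -0.12 with an interval from -0.58 to 0.35. Since the copies are near-identical, reads could be split between them and each value is uncertain. Dnajb1, Bag3, Hsf1, Dnaja1, Hspa4l and Chordc1 were not called over the 4 times in SPF mice either. Hsp90aa1, the stress-inducible Hsp90 isoform, was called over the 4 times (edgeR, adjusted p = 0.00362) but not for ZT23 minus ZT11, where it stood at 0.28 ± 0.12 (log2, SE).

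Of the 2 cold-inducible genes, Rbm3 was called over time in SPF mice and Cirbp was not. Rbm3 had its highest mean at ZT17, as did Herpud1 among the called members. Rbm3 was at 83, 119 and 136 CPM at ZT5, at 99.7, 143 and 203 CPM at ZT11, at 152, 180 and 228 CPM at ZT17 and at 117, 137 and 193 CPM at ZT23 in SPF mice. All 8 ZT17 libraries stood above all 8 ZT5 libraries, which held for 1 of 41 members and in 0.543% of all genes for that pair of times in either direction. The log2 difference was 0.63 ± 0.12 (SE; edgeR, adjusted p = 0.00192), while between ZT11 and ZT23 it was 0.02 with a 95% interval from -0.21 to 0.24. Cirbp was at medians of 53.4, 52.7, 60 and 53.7 CPM at ZT5, 11, 17 and 23. Its highest median was also at ZT17, but the difference from ZT5 was 0.14 with an interval from -0.07 to 0.35 and it was not called.

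**Figure D4:**
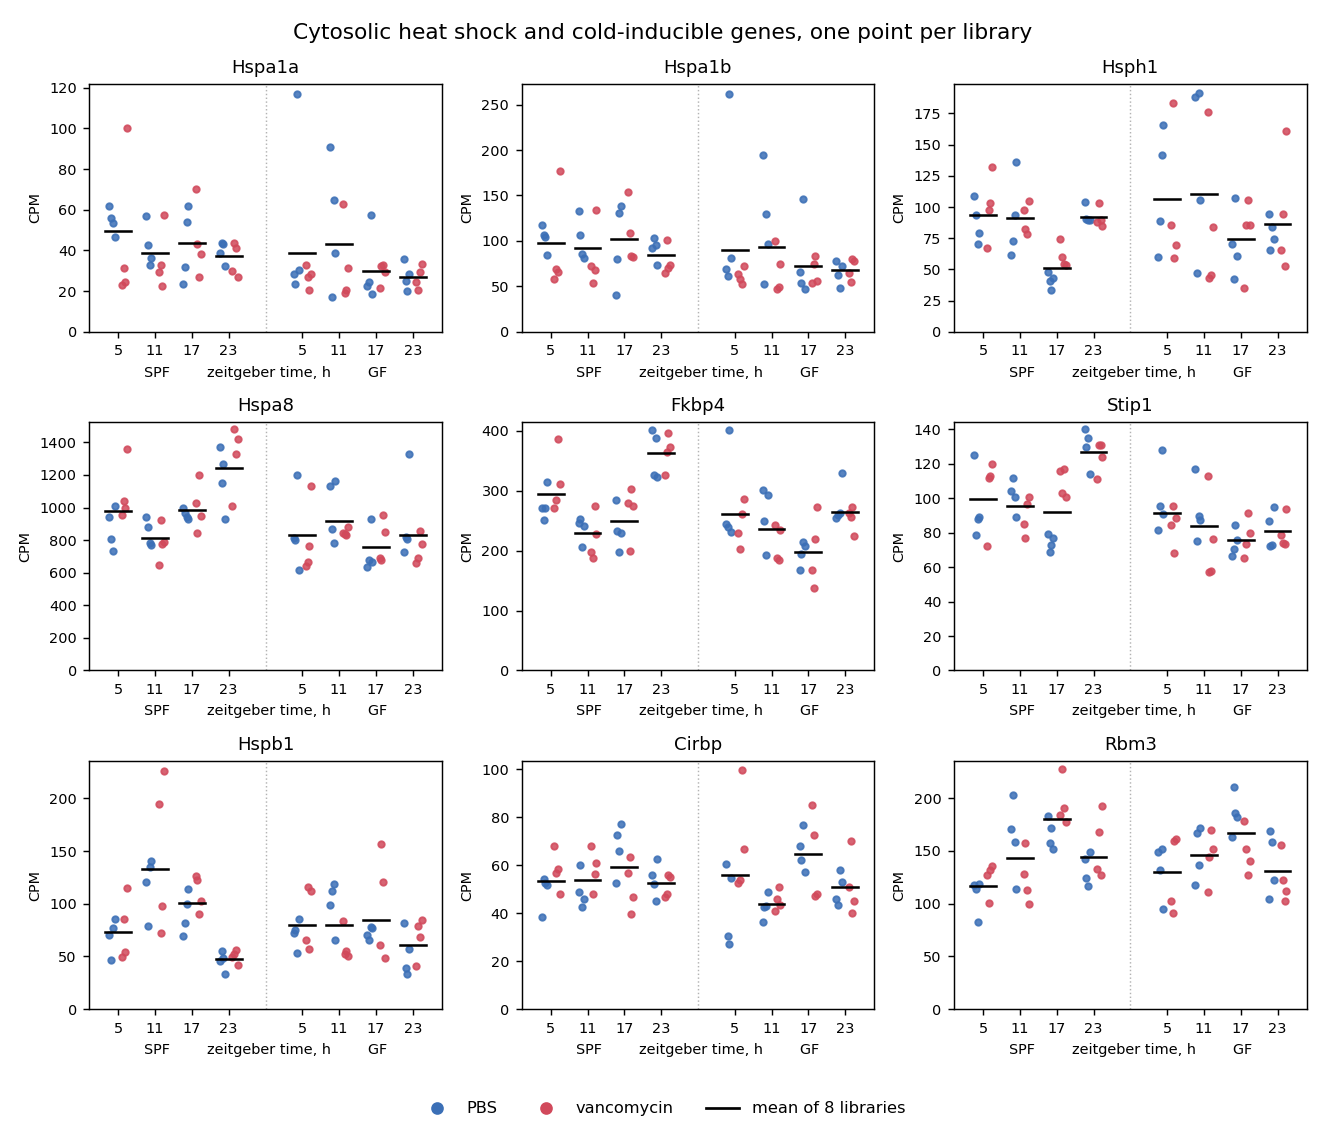
CPM (y axes, from 0) of 7 heat shock genes and of the cold-inducible Cirbp and Rbm3 in each library by zeitgeber time in hours (x axes), SPF mice left and GF mice right of the dotted line; points are libraries, blue for PBS and red for vancomycin, and black lines are means of 8 libraries. In SPF mice Fkbp4 stands highest at ZT23, Hsph1 lowest and Rbm3 highest at ZT17, and single libraries stand far above the others for Hspa1a and Hspa1b.

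Within each SPF treatment the time test compared the group means of its 16 libraries. The spread was estimated from the SPF libraries of both treatments together. After PBS it called 14 members, against 8.90% of all genes, and after vancomycin 9 members, against 8.20%. Hspb1, Fkbp4, Rbm3, Hyou1, Sdf2l1 and Herpud1 were called in both. A call after 1 treatment alone does not show a difference between treatments, which the test of treatment by time addresses. Without the SPF PBS ZT23 replicate 1 library, 9 members were called after PBS.

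In GF mice few members passed a test for time. The test over the 4 times called 1 of 41 members, Herpud1, against 0.991% of all genes, and 10 members had an unadjusted p under 0.05. Herpud1 was at 72.7, 92.6 and 124 CPM at ZT5, at 85.2, 93 and 133 CPM at ZT11, at 85.3, 150 and 180 CPM at ZT17 and at 79.8, 142 and 197 CPM at ZT23 (edgeR, adjusted p = 0.0376). Both dark times had the higher medians, as in SPF mice, and all times overlapped. At ZT17 against ZT5, 2 members were called, against 0.914% of all genes. Herpud1 rose by 0.57 ± 0.14, against 0.49% of all genes higher, and the isomerase Pdia6 fell by 0.45 ± 0.11, against 0.425% lower (log2, SE; edgeR, adjusted p = 0.0467 and 0.044). Leaving out 1 library at a time, the call of Herpud1 over the 4 times was lost for 13 of 32 libraries, and at ZT17 against ZT5 the calls of Herpud1 and Pdia6 were lost for 16 and 17 of 32. With the replicate block, and without the low-count filter, these 3 calls were lost. At ZT17 against ZT5 both were also lost with the Y-linked covariate, and that of Pdia6 with the colon position covariate.

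At ZT23 against ZT11, 0 members were called in GF mice by edgeR, against 0.254% of all genes; 3 had an unadjusted p under 0.05, and DESeq2 called 1. Hspa5 was at 250, 340 and 478 CPM at ZT11 and at 301, 368 and 514 CPM at ZT23, and the times overlapped over most of their range. Its log2 difference was 0.08 with a 95% interval from -0.24 to 0.41. Sdf2l1 stood at 0.09 (-0.24 to 0.43), Hyou1 at 0.05 (-0.26 to 0.35) and Fkbp4 at 0.18 (-0.09 to 0.44). No member had GF libraries without overlap at ZT23 against ZT11 or at ZT17 against ZT5, where 0.177% and 0.289% of all genes did. For Rbm3 the difference between ZT17 and ZT5 was 0.36 with an interval from 0.08 to 0.63 and an adjusted p of 0.225 (edgeR), and for Cirbp it was 0.25 (-0.08 to 0.58). Within treatments 0 members were called over time in GF mice after PBS and 0 after vancomycin, each against 0.142% of all genes. At an unadjusted p under 0.05 there were 11 and 3 members, and DESeq2 called 1 in each. GF libraries were the more variable. The median SE of the members for ZT23 minus ZT11 was 0.14 in GF and 0.11 in SPF mice, and that of the smooth muscle markers was 0.36 and 0.18.

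Whether the course over the day differed between SPF and GF mice was tested in a joint fit of the changes within each table. Of 41 members 2 were called, against 3.55% of all genes, and 15 had an unadjusted p under 0.05. Xbp1 was called (edgeR, adjusted p = 0.0242). Its medians at ZT5, 11, 17 and 23 were 145, 145, 188 and 201 CPM in SPF mice and 164, 162, 139 and 161 CPM in GF mice, so ZT17 was above ZT5 in SPF mice and below it in GF mice. Hspa8 was called (edgeR, adjusted p = 0.0408). Its medians were 978, 786, 959 and 1300 CPM in SPF mice and 781, 856, 685 and 789 CPM in GF mice, so ZT11 held the lowest SPF and the highest GF median. The tables were scaled separately, so levels are not compared between SPF and GF mice. The call of Xbp1 was kept without any single library, and that of Hspa8 was lost for 19 of 64. With the smooth muscle covariate 0 members were called, and DESeq2 called 7.

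Vancomycin changed 1 of the 41 members in SPF mice, Herpud1, against 0.809% of all genes, or 0.378% higher. At ZT5 Herpud1 was at 74, 66.5, 58.4 and 87.7 CPM after PBS and at 100, 134, 106 and 141 CPM after vancomycin, without overlap. At ZT23 it was at 98.3, 81.3, 93.3 and 89.8 CPM after PBS and at 184, 147, 183 and 119 CPM after vancomycin, again without overlap. The treatments overlapped at ZT11, with 84.2, 88.4, 90.3 and 85.2 CPM after PBS and 97.6, 98.6, 79.2 and 60.3 CPM after vancomycin. They overlapped at ZT17 too, with 124, 153, 162 and 116 CPM after PBS and 125, 114, 116 and 167 CPM after vancomycin. Over the 4 times the log2 difference was 0.35 ± 0.08 (SE; edgeR, adjusted p = 0.0356), and the call was lost for 15 of 32 libraries left out singly and without the low-count filter (adjusted p = 0.0524).

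At single times 0 members were called for vancomycin by edgeR in SPF mice, against 0.0827% of all genes at ZT5, 0% at ZT11, 0.319% at ZT17 and 0% at ZT23. At an unadjusted p under 0.05 there were 4, 1, 4 and 1 members. Herpud1 had differences of 0.75 ± 0.16 at ZT5, -0.05 ± 0.16 at ZT11, -0.08 ± 0.16 at ZT17 and 0.80 ± 0.16 at ZT23 (log2, SE; edgeR, adjusted p = 0.0694, 0.949, 0.954 and 0.125). Stip1 at ZT17 was at 79.4, 68.9, 72.7 and 77.2 CPM after PBS and at 116, 103, 117 and 101 CPM after vancomycin. These did not overlap, and the difference of 0.55 ± 0.13 was not called (edgeR, adjusted p = 0.0816). The test of treatment by time called 0 members, against 0.36% of all genes. Herpud1 had an adjusted p of 0.0666 there (edgeR), and 4 members had an unadjusted p under 0.05. DESeq2 called 1 member at ZT5, 1 at ZT17, 1 at ZT23 and 1 for treatment by time.

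No other member was called for vancomycin over the 4 times in SPF mice. The difference was 0.15 ± 0.10 for Hspa5, -0.16 ± 0.19 for Hspa1a and 0.04 ± 0.07 for Ddit3 (log2, SE; edgeR, adjusted p = 0.487, 0.736 and 0.828). The median over the members was 0.07, and over all genes 0.00. In GF mice edgeR called 0 members for vancomycin over the 4 times, at ZT5, at ZT11, at ZT17, at ZT23 and for treatment by time, and 0% of all genes in each of these tests. The numbers of members with an unadjusted p under 0.05 were 2, 3, 4, 2, 2 and 2, and DESeq2 also called 0 members. The GF libraries of the 2 treatments also differed in Y-linked expression and in markers of makeup. The summed level of 4 Y-linked genes was 53.9, 228 and 301 CPM (lowest, median and highest of 16 libraries) after PBS and 17, 73.7 and 269 CPM after vancomycin. Every SPF library lay between 209 and 280 CPM, so the GF set was mixed in this where the SPF set was not. A Y-linked covariate was fitted in GF mice alone, and the part of sex in the SPF-against-GF tests was not tested. At ZT23 the 5 proximal Hox genes tested, which mark position along the colon, had a median log2 difference of 3.87, and the 8 B cell follicle markers one of -4.34, with 0 genes of these lists called by edgeR and 5 and 8 at an unadjusted p under 0.05. With a covariate for Y-linked genes, for colon position or for B cell follicles, 0 members were called in each of these 6 GF tests. Over the 4 times Herpud1 differed in GF mice by -0.10 ± 0.10 (log2, SE; edgeR, adjusted p = 1). The test of the vancomycin difference between SPF and GF mice called 0 members with edgeR and 0 with DESeq2. In edgeR, 3 members had an unadjusted p under 0.05. Of all genes, edgeR called 0% and DESeq2 called 16 genes in that test. Herpud1 had a difference of 0.45 ± 0.13 between SPF and GF mice (log2, SE; edgeR, adjusted p = 0.229).

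Single libraries stood apart in the inducible Hsp70 genes. In 5 of 64 libraries Hspa1a was at least 2 times the median of the other libraries of its group, a limit chosen after the values were seen. The SPF vancomycin ZT5 library of replicate 4 held 100 CPM against 22.8 to 31.5 CPM in its group, and 177 CPM of Hspa1b against 58.1 to 69.2 CPM. In the GF PBS ZT5 library of replicate 3 Hspa1a was at 117 CPM, against 23.5 to 30.6 CPM in its group, and Hspa1b at 262 CPM. There Dnajb1, the Hsp40 partner of Hsp70, was at 107 CPM against a median of 56.3 CPM, and Cirbp at 27.3 CPM against 54.8 CPM. Rbm3 was above the rest of the group, at 152 CPM against 132 CPM, while Hsp90ab1, at 608 CPM against 1110 CPM, and Hspb1, at 53.3 CPM against 75.5 CPM, were below it. The GF vancomycin ZT11 library of replicate 1 held Hsph1 at 176 CPM against a median of 45.7 CPM. Dnajb1 was the lowest of its group there, at 59.2 CPM against a median of 70.7 CPM. Leaving aside Hspa1a, by which the 5 libraries were chosen, and its copy Hspa1b, 11 or 12 of the other 17 heat shock genes stood above every other library of their group in each of the 5 libraries, against 18.9% to 35% of all genes tested. Of the 20 ER genes 6 to 12 did so, with 12 in the GF vancomycin ZT11 library of replicate 1. These counts describe libraries picked by their values and were not tested.

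Across all libraries of the same kind, relative to their group means, Hspa1b went with Hspa1a (r = 0.91 and rho = 0.86 in SPF, r = 0.97 and rho = 0.95 in GF mice; permutation p adjusted over the 30 relations 0.00015 for each, resting on the smallest p the permutations can give). The values of these near-identical copies are not independent. In GF mice Hsph1 had r = 0.68 and rho = 0.70 with Hspa1a (permutation, adjusted p = 0.0011 and 0.00075), and Bag3, a co-chaperone of Hsp70, had r = 0.63 and rho = 0.71 (permutation, adjusted p = 0.00018 and 0.00036). Without the 2 libraries farthest from the median of Hspa1a these r were 0.95 for Hspa1b, 0.67 for Hsph1 and 0.60 for Bag3 in GF mice, and 0.86 for Hspa1b in SPF mice. In SPF mice Hsph1 had r = 0.30 and rho = 0.25 (permutation, adjusted p = 0.332 and 0.322), and Bag3 had r = 0.36 and rho = 0.43 (permutation, adjusted p = 0.0923 and 0.0792). Dnajb1 had r = 0.55 and rho = 0.37 in GF mice and r = 0.48 and rho = 0.45 in SPF mice (permutation, adjusted p = 0.0923, 0.178, 0.0653 and 0.0792). Hspa8 had r = 0.42 and rho = 0.26 in GF mice and r = 0.31 and rho = 0.26 in SPF mice (permutation, adjusted p = 0.0986, 0.3, 0.224 and 0.306). Without 2 libraries the GF r were 0.27 for Dnajb1 and 0.28 for Hspa8. The cold-inducible Cirbp had r = -0.38 and rho = -0.36 with Hspa1a in GF mice (permutation, adjusted p = 0.0923 and 0.157) and r = 0.04 in SPF mice (permutation, adjusted p = 0.909). Rbm3 had r = -0.32 and rho = -0.40 in GF mice (permutation, adjusted p = 0.191 and 0.0965) and r = -0.06 in SPF mice (permutation, adjusted p = 0.867). The ER chaperone Hspa5 had r = 0.41 and rho = 0.42 in GF mice (permutation, adjusted p = 0.0923 and 0.0792) and r = 0.12 in SPF mice (permutation, adjusted p = 0.899). None of the relations of Dnajb1, Hspa8, Cirbp, Rbm3 and Hspa5 with Hspa1a passed the adjustment.

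Genes of the same pathways outside the 40 symbols were read in the same tests, where 8.67% of all genes were higher and 12.1% lower at ZT23 than at ZT11 in SPF mice. Of 48 other heat shock genes tested, 4 rose and 12 fell (33.3% called, against 20.7% of all genes), with a median log2 difference of 0.03. The Hsp70 partner St13 rose by 0.41 ± 0.07, while the co-chaperone Bag2 and the small heat shock gene Hspb2 fell by 2.06 ± 0.33 and 1.04 ± 0.19 (log2, SE; edgeR, adjusted p = 0.00015, 8.03e-05 and 0.00027). The other small heat shock genes Cryab, Hspb6, Hspb7 and Hspb8, which muscle is known to express, also fell, by 0.90 to 1.59, and are named after their values were seen. Of 54 other genes of ER folding and the unfolded protein response, 4 rose and 4 fell (14.8% called), with a median of 0.03. Among those that fell, Fkbp7, Wfs1 and Uggt2 had log2 differences of -0.55 ± 0.15, -0.46 ± 0.12 and -0.99 ± 0.29 (SE). Their adjusted p in edgeR were 0.00784, 0.00944 and 0.0143. The genes Os9, Uggt1 and Derl1, which act in ER quality control, rose by 0.37 ± 0.07, 0.54 ± 0.11 and 0.33 ± 0.07 (log2, SE; edgeR, adjusted p = 0.000322, 0.000853 and 0.00177). Of 29 other genes of the integrated stress response tested, 2 rose and 4 fell (20.7% called), among them Nupr1 and Atf5, which fell by 1.47 ± 0.24 and 0.60 ± 0.10 (log2, SE; edgeR, adjusted p = 9.71e-05 and 0.000161). In GF mice 0 of these 131 genes were called at ZT23 against ZT11 by edgeR, with 14 at an unadjusted p under 0.05. Ddit4, an inhibitor of mTOR signalling that stress induces, was the 1 such gene to rise with vancomycin in SPF mice over the 4 times. Its log2 difference was 0.61 ± 0.12 (SE, edgeR adjusted p = 0.0184). Ubb, of the heat shock list, was the 1 such gene called for vancomycin at ZT17 in SPF mice, against 0.319% of all genes. Its log2 difference there was -0.64 ± 0.14 (SE, edgeR adjusted p = 0.046). Ubb was also the 1 called for SPF treatment by time (edgeR adjusted p = 0.0111), against 0.36% of all genes.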

How the data were processed

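RNA was measured by poly(A)-selected sequencing of 64 whole colon libraries. Per the submitters' processing notes, the authors used Trim Galore 0.6.2, cutadapt 3.5 and Salmon with build GRCm39. The deposited values are read as estimated counts per gene, 1 table for SPF and 1 for GF libraries. The file names call them normalized, but no scaling for depth was visible in them, since totals differed between libraries. The sources used here do not name the annotation or any use of strand.

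Estimated counts were rounded. Genes with at least 10 in at least 4 libraries (16938 SPF, 16951 GF, 16604 in both) were fitted with edgeR 4.0.16 (R 4.3.3; TMM scaling, quasi-likelihood test), with 1 mean per group and adjusted p under 0.05 as the threshold. Contrasts were the time of day, ZT17 minus ZT5, ZT23 minus ZT11, vancomycin minus PBS, their interaction, and SPF against GF. Each SE was derived from the log2 fold change and the F statistic of its test. The 95% intervals used a normal distribution rather than that of the test. CPM used the TMM library sizes, and covariates were mean log2 CPM of marker lists (prior count 2). The functions were tested on simulated data. Correlations within groups used 100000 permutations within groups and were chosen after the data were seen.

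Values by library were given for at most 12 members passing the time test of a table, by p, for members passing a treatment or SPF-against-GF test, and for Hspa1a, Hspa1b, Cirbp, Rbm3, Hspa5 and Ddit3. Other pathway genes were named by lowest p, at most 3 per list, direction and test, apart from those named as a full set or after their values were seen. The members and lists were chosen with earlier results of these data known. Promoter windows of 33 symbols came from RefSeq on GRCm38.p6, another build than that of the expression tables, so no coordinate was carried between them. Alternatives were RLE scaling, DESeq2 1.42.0, other count filters, a replicate block, leaving out each library, and covariates for smooth muscle, colon position, B cell follicles and Y-linked genes.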

Additional observations from a re-analysis of the deposited data

Results flagged for a closer look

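Within the groups of 4 libraries, each value of the 18 members given by library was compared with the others of its group. In 17 of 288 such groups (5.9%) the highest or lowest library stood farther from the nearest than Dixon's 95% limit allows, where chance flags about 5% of groups, and 11 of the 17 stood high. In the SPF vancomycin ZT5 library of replicate 4, Hspa1a was at 100 CPM, against 22.8 to 31.5 CPM in the other libraries and Hspa1b was at 177 CPM, against 58.1 to 69.2 CPM in the other libraries. In the SPF PBS ZT23 library of replicate 1, Hsph1 was at 104 CPM, against 89.2 to 90.6 CPM in the other libraries. In the SPF vancomycin ZT5 library of replicate 1, Stip1 was at 72.5 CPM, against 112 to 120 CPM in the other libraries. In the SPF PBS ZT5 library of replicate 1, Cirbp was at 38.4 CPM, against 51.9 to 54.3 CPM in the other libraries. In the SPF PBS ZT5 library of replicate 3, Rbm3 was at 83 CPM, against 114 to 119 CPM in the other libraries. In the SPF vancomycin ZT23 library of replicate 1, Hyou1 was at 142 CPM, against 159 to 162 CPM in the other libraries. In the SPF PBS ZT17 library of replicate 1, Ddit3 was at 15.4 CPM, against 19.8 to 20.6 CPM in the other libraries. In the GF PBS ZT17 library of replicate 3, Hspa1a was at 57.2 CPM, against 18.4 to 24.7 CPM in the other libraries and Hspa8 was at 931 CPM, against 633 to 678 CPM in the other libraries. In the GF PBS ZT5 library of replicate 3, Hspa1a was at 117 CPM, against 23.5 to 30.6 CPM in the other libraries and Hspa1b was at 262 CPM, against 61.2 to 81.7 CPM in the other libraries and Fkbp4 was at 401 CPM, against 231 to 245 CPM in the other libraries. In the GF PBS ZT23 library of replicate 4, Hspa8 was at 1330 CPM, against 728 to 820 CPM in the other libraries and Fkbp4 was at 329 CPM, against 254 to 263 CPM in the other libraries. In the GF vancomycin ZT11 library of replicate 1, Hspb1 was at 83.3 CPM, against 50 to 54.7 CPM in the other libraries. In the GF vancomycin ZT17 library of replicate 2, Herpud1 was at 140 CPM, against 176 to 180 CPM in the other libraries. Of 41 members, 2 were called for a different change over the day in SPF and GF mice, against 3.55% of all genes. These were Xbp1 (edgeR, adjusted p = 0.0242) and Hspa8 (edgeR, adjusted p = 0.0408). The call of Hspa8 was lost for 19 of 64 libraries left out singly, and both calls were lost with the smooth muscle covariate.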

How the results depend on the processing

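RLE scaling and the stricter count filter left every count of called members within 1.5 times. Without the low-count filter 0 members were called for SPF vancomycin, 0 for GF time of day, 0 for GF ZT17 minus ZT5 and 1 for SPF against GF time of day. DESeq2 called 16 over time after vancomycin in SPF mice, 1 each for SPF vancomycin at ZT5, ZT17 and ZT23 and for SPF treatment by time, 3 for GF time of day, 1 each for GF ZT23 minus ZT11 and for GF time after PBS and after vancomycin, and 7 for SPF against GF time of day. With the smooth muscle covariate the counts were 8 for SPF time of day, 0 for SPF ZT23 minus ZT11, 6 and 1 over time after PBS and after vancomycin in SPF mice, 2 for GF time of day, 1 for GF ZT23 minus ZT11, 1 for GF time after vancomycin and 0 for SPF against GF time of day. Goblet cell markers beside it, an alternative chosen after seeing the data, gave 5 for SPF time of day and 0 for SPF ZT23 minus ZT11. The smooth muscle levels of ZT11 and ZT23 did not overlap in SPF mice, so that fit separates the 2 poorly. With the colon position covariate the counts were 12 for SPF ZT23 minus ZT11, 6 and 5 over time after PBS and after vancomycin in SPF mice, and 1 each for GF ZT17 minus ZT5, GF ZT23 minus ZT11, GF time after vancomycin and SPF against GF time of day. The B cell follicle covariate gave 1 for GF time after vancomycin, and the Y-linked covariate gave 0 for GF ZT17 minus ZT5. For the other changes the cause was not tested.

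The replicate numbers did not pair libraries: deviations of same-numbered libraries had a median correlation of 0.02 in SPF (from -0.29 to 0.49) and -0.05 in GF mice (from -0.54 to 0.55). With the replicate block 25 members were called for SPF time of day and 23 for SPF ZT23 minus ZT11, and 0 for GF time of day and for GF ZT17 minus ZT5.

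Leaving out each library in turn gave 23 to 27 called members for SPF time of day, 22 to 24 for SPF ZT23 minus ZT11, 9 to 15 over time after PBS and 7 to 13 after vancomycin in SPF mice. It gave 4 to 6 for SPF ZT17 minus ZT5, 0 to 1 for SPF vancomycin over all times, at ZT5 and at ZT17 and for SPF treatment by time, 0 to 1 for GF time of day, GF ZT23 minus ZT11 and GF time after vancomycin, 0 to 5 for GF ZT17 minus ZT5, and 1 to 7 for SPF against GF time of day.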
